A study of Homo sapiens with 16 samples.

Results

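The genes described here are the ARF GTPases and the large factors that activate them, followed across 16 RNA libraries of a human B cell line. The members were taken by symbol: the 5 ARFs ARF1, ARF3, ARF4, ARF5 and ARF6, the ARF-like GTPase ARL1, and the 3 exchange factors GBF1, ARFGEF1 and ARFGEF2. They make up 9 of the 58051 gene identifiers measured. All 9 passed the filter on low values (a mean normalized count of 10 or more), although ARFGEF1 did so narrowly, with a mean of 11.03.

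ARF GTPases are small proteins that cycle between a soluble state bound to GDP and a membrane-bound state bound to GTP. They carry the fatty acid myristate on the glycine that follows the start methionine, and the lipid holds the active protein on the membrane. Exchange factors with a Sec7 domain, such as GBF1 at the early Golgi and the ARFGEF1 and ARFGEF2 products (BIG1 and BIG2) at the trans-Golgi network, load ARFs with GTP. GTPase-activating proteins switch ARFs off, and active ARFs recruit the COPI coat, clathrin adaptors and lipid-modifying enzymes. N-myristoyltransferases attach the myristate, so ARFs and ARL1 are substrates of the enzymes inhibited in this study.

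The cells were of the established P493-6 line, human B cells whose MYC transgene is repressed by doxycycline and whose viral transcription factor EBNA2 is switched on by oestrogen. The series asks how inhibition of N-myristoyltransferase (NMT) acts at different MYC levels. High MYC control cells were kept in normal DMEM and received the DMSO vehicle for 24 h. High MYC inhibitor cells were kept in the same medium and received 100 nM of the NMT inhibitor IMP1088 for 24 h. Medium MYC control and medium MYC inhibitor cells were treated in the same 2 ways, but had been exposed from 24 h before to beta-estradiol at 1 uM together with doxycycline at 0.1 ug/mL. All 4 groups share the cell line and an exposure of 24 h to vehicle or drug, and each has 4 libraries. MYC level, doxycycline and estradiol were changed together and cannot be told apart. The labels do not say that the 4 libraries of a group came from separate cultures, so p-values measure only the spread between these libraries, which may be technical.

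The second codon of the coding sequence is shown first, for every member but ARFGEF1. In the GTPases it encodes the residue to which the inhibited enzymes attach myristate. Each line gives the first 30 coding bases, 5′ to 3′, from GENCODE 29 on GRCh38, with the second codon in capitals. Those of ARF1 lie at chr1:228097115-228097144 (plus strand), ARF3 at chr12:48941066-48941095 (minus), ARF4 at chr3:57597111-57597140 (minus) and ARF5 at chr7:127588499-127588528 (plus). Those of ARF6 lie at chr14:49893737-49893766 (plus), GBF1 at chr10:102258939-102258968 (plus) and ARFGEF2 at chr20:48921890-48921919 (plus), while those of ARL1 are spliced from separate exons on chromosome 12 (minus).
ARF1: atgGGGaacatcttcgccaacctcttcaag
ARF3: atgGGCaatatctttggaaaccttctcaag
ARF4: atgGGCctcactatctcctccctcttctcc
ARF5: atgGGCctcaccgtgtccgcgctcttttcg
ARF6: atgGGGaaggtgctatccaaaatcttcggg
ARL1: atgGGTggctttttctcaagtatattttcc
GBF1: atgGTGgataagaatatttacatcattcaa
ARFGEF2: atgCAGgagagccagaccaagagcatgttc
The second codon is a glycine codon in all 6 GTPases and in neither of the exchange factors shown.

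The GTPases are close relatives at the DNA level, which bears on how well reads can be assigned. Aligned over their coding sequences, ARF1 and ARF3 were the nearest pair, with 83.8% identical bases and a longest identical run of 23 bases. ARF4 and ARF5 shared 76.7%. ARL1 shared 55.2% to 58.7% with each ARF. Processed copies were near silent: the 3 annotated pseudogenes named after ARF1 had mean normalized counts of at most 3.30, and the 4 named after ARF4 at most 1.18. Exons of ARF5 overlap those of GCC1 on the opposite strand over 410 bases, 21.9% of the ARF5 exons, and those of ARF4 overlap the antisense RNA ARF4-AS1 over 301 bases. Exons of ARFGEF1 overlap those of CSPP1 on the opposite strand over 141 bases. CSPP1 had a mean normalized count of 298, far above the 11.03 of ARFGEF1. Whether counting used strand is not given in the sources used here, so reads in these stretches cannot be told apart. The part of CSPP1 reads in the ARFGEF1 values was not tested. Some exons are also shared on the same strand, where strand cannot separate reads. Those of ARF3 overlap AC073610.3 over 533 bases and AC073610.2 over 167, and those of ARF5 overlap FSCN3 over 297. The mean normalized counts of these 3 genes were 4.06, 0 and 2.27.

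Normalized counts are reads divided by a size factor per library. Libraries held 8755296 to 13858534 reads. MYC mRNA, which defined the groups, averaged 31649 ± 2130 in the 4 high MYC controls and 958.6 ± 48.7 in the 4 medium ones (mean ± SD). It also rose with the inhibitor, to 46843 to 48049 at high MYC (log2 difference 0.59, limma adjusted p = 7.24e-10) and 1328 to 1444 at medium MYC (0.53, limma adjusted p = 2.74e-09), with no overlap with controls. The difference between these MYC responses was 0.06 (limma adjusted p = 0.605), and the part of the MYC rise in the inhibitor results was not tested. B cell markers summed to 33847 to 42582 normalized counts at high MYC and 55645 to 65582 at medium MYC, with 7 and 8 of 8 markers above 3 reads and CR2 at 0 at high MYC. Plasma cell markers (3 of 3 present) summed to 7076 to 8982 at high MYC and 825 to 1412 at medium MYC. Fibroblast markers (DCN at 0) summed to 4.44 to 19.4 at high and 156 to 221 at medium MYC. T cell, monocyte, natural killer and epithelial markers summed to at most 101, 83.4, 26.5 and 86.3 in any library, with CD8A, FCGR3A, NCAM1 and KRT18 at 0 in at least 1 group. At high MYC the B cell sums were 40217 to 42582 in controls and 33847 to 35046 with the inhibitor. At medium MYC they were 61676 to 65582 and 55645 to 57305. Plasma cell sums were higher with the inhibitor, at 8862 to 8982 against 7076 to 8621 at high MYC. At medium MYC they were 1295 to 1412 against 825 to 951. The part of these marker shifts in the differences by MYC level or with the inhibitor was not tested.

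Levels of different genes were compared per kilobase of annotated exon. In high MYC controls ARF1 (chromosome 1, 228082660 to 228099212) was the most abundant member at 819 ± 21.7 normalized counts per kb (SD, n = 4). ARF3 (chromosome 12, 48935723 to 48957551) followed at 475 ± 4.11 and ARF6 (chromosome 14, 49893092 to 49897054) at 395 ± 30.4. Below them stood ARF4 at 188 ± 16.1, GBF1 at 165 ± 5.44, ARF5 at 152 ± 9.35, ARFGEF2 at 139 ± 7.16 and ARL1 at 87.5 ± 4.23 per kb. The ranges of GBF1 and ARF5 overlapped, as did those of ARF5 and ARFGEF2. All other neighbours in this order were separated in every library. The order depends on the gene length used. Without division by length, GBF1 (1050 to 1138) stood above ARF4 (448 to 546) in these libraries. ARFGEF1 was close to silent at 0.255 ± 0.243 per kb.

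**Figure D1:**
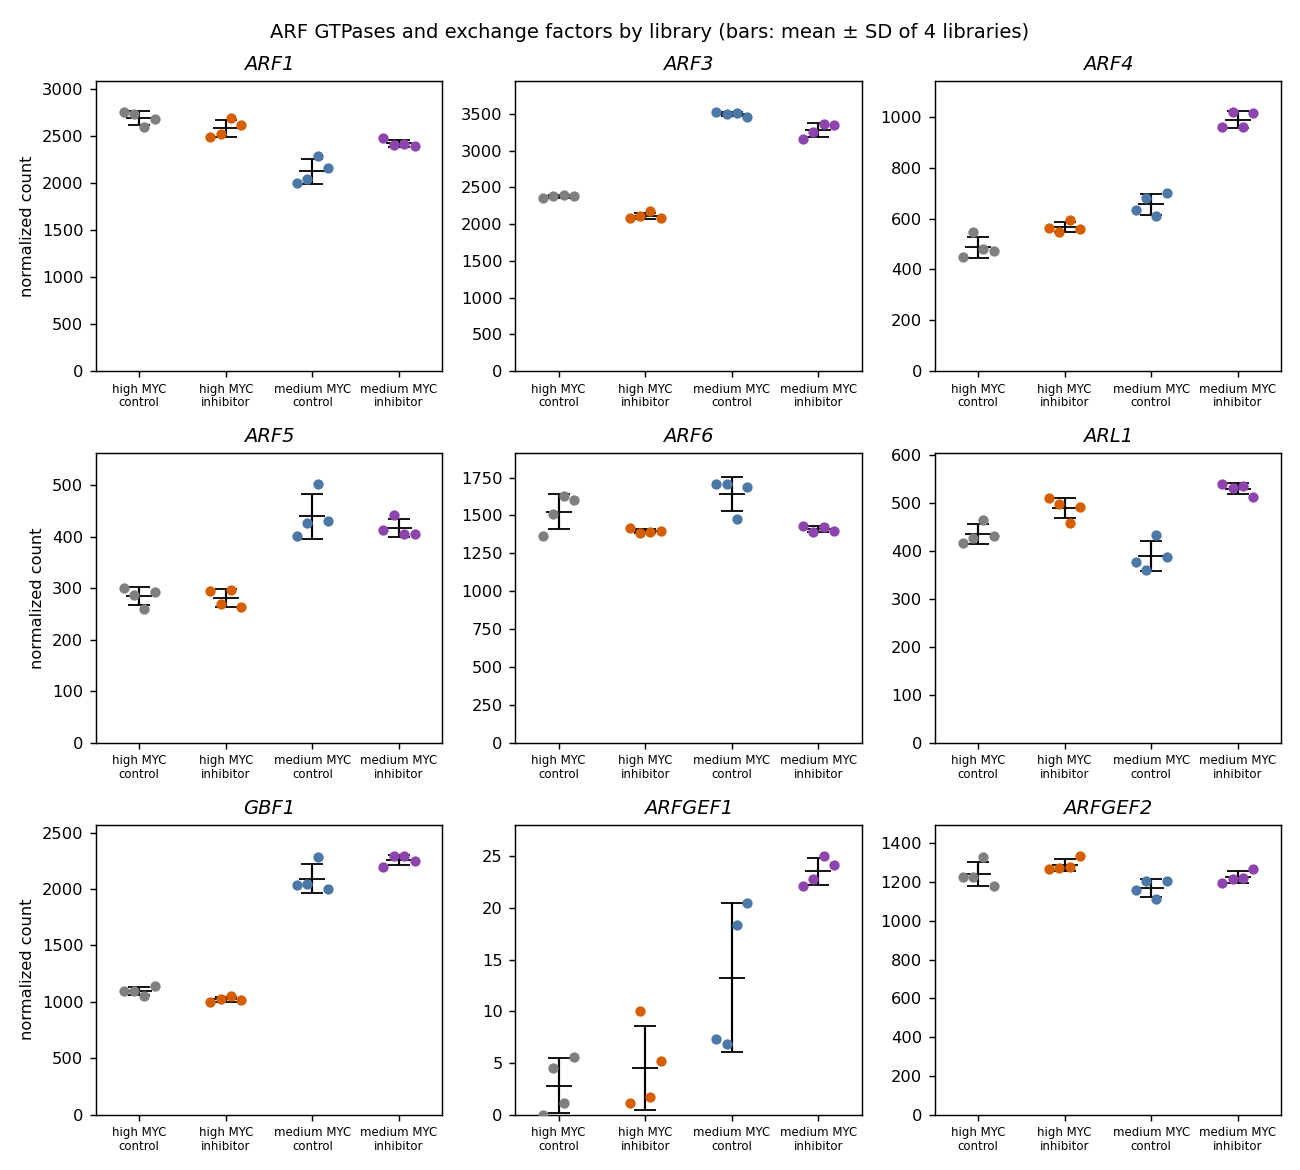
Normalized count of each of the 9 genes in each of the 16 libraries (points), by group, with bars at the mean ± SD of 4 libraries; every vertical axis starts at 0. ARF4, GBF1 and ARFGEF1 stand highest with the inhibitor at medium MYC, whereas ARF1 is highest in the high MYC controls and ARFGEF2 stays between 1111 and 1336 throughout.

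As parts of the summed per-kb level of the 6 GTPases, the order also changed with MYC level. ARF1 supplied 38.7% of the pool in high MYC controls (37.5% to 40.3%, n = 4) and 27.6% ± 1.29 (SD, n = 4) in medium MYC controls. ARF3 supplied 22.5% ± 0.272 and 29.96% ± 0.650 in the same groups. In medium MYC controls the ranges of ARF1 (26.6% to 29.4%) and ARF3 (29.3% to 30.8%) touched. With the inhibitor at medium MYC, ARF1 was at 29.9% ± 0.567 and ARF3 at 26.6% ± 0.718. The part of ARF4 went from 8.86% ± 0.650 to 10.7% ± 0.193 with the inhibitor at high MYC, and from 10.8% ± 0.693 to 15.4% ± 0.471 at medium MYC. These shares have no test of their own, and the order of ARF1 and ARF3 turns on the gene length used: without division by length ARF3 averaged 33.8% and ARF1 30.03% over all libraries.

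**Figure D2:**
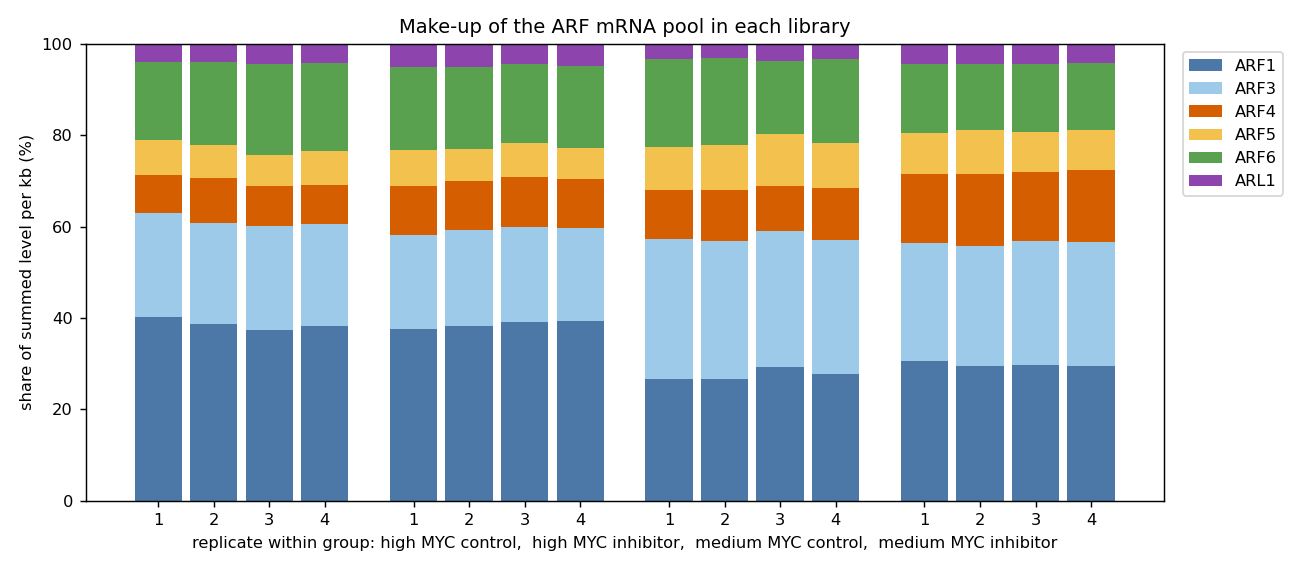
Share (%) of each GTPase in the summed normalized count per kb of the 6 GTPases, 1 bar per library in 4 groups of 4. The band of ARF4 is widest with the inhibitor at medium MYC (15.4% on average) and the band of ARF1 is wider at high MYC (38.7% in controls) than at medium MYC (27.6%).

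The inhibitor was compared with its control first at high MYC. Here 3 of the 9 members passed the limma test at an adjusted p under 0.05: ARF4 and ARL1 rose and ARF3 fell. Of all 13765 genes tested, 26.8% passed in this comparison, 10.5% higher and 16.3% lower, so the members were called about as often as genes in general. The 4 inhibitor and 4 control libraries did not overlap for 2 members, against 26.7% of all genes. Their median log2 difference was -0.02, as was that of all genes tested. All log2 differences are on the scale log2(normalized count + 1), and in bulk RNA fewer cells with a transcript and less of it per cell cannot be told apart.

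ARF4, a GTPase that acts at the early Golgi with ARF1, measured 448, 546, 481 and 473 in the high MYC controls and 564, 548, 596 and 557 with the inhibitor. All inhibitor libraries lay above all controls. The log2 difference was 0.22 (SE 0.056, limma adjusted p = 0.00503).

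ARF3, a close relative of ARF1 that works at the trans-Golgi network, measured 2350, 2381, 2399 and 2381 in controls and 2078, 2110, 2176 and 2078 with the inhibitor. The groups were far apart relative to their spread, and ARF3 fell by 0.17 on the log2 scale (SE 0.027, limma adjusted p = 4.94e-05). No alternative ended this call.

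ARL1, which recruits golgins to the trans-Golgi, measured 417, 427, 466 and 433 in controls and 511, 498, 460 and 492 with the inhibitor. The groups overlapped, because the third replicate of each lay toward the other. The log2 difference was 0.17 (SE 0.055, limma adjusted p = 0.0255). The call was lost without high MYC control replicate 1, 2 or 4 or high MYC inhibitor replicate 1, 2 or 4 (limma adjusted p from 0.0507 to 0.0791) and after a GC correction (log2 difference 0.12, limma adjusted p = 0.152).

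The other members did not pass at high MYC. ARF1 differed by -0.06 (limma adjusted p = 0.259), ARF5 by -0.02 (limma adjusted p = 0.858), ARF6 by -0.12 (limma adjusted p = 0.0668) and GBF1 by -0.10 (limma adjusted p = 0.0631). ARFGEF2 differed by 0.05 (limma adjusted p = 0.343). ARF6 passed after a GC correction (limma adjusted p = 0.00851), without high MYC control replicate 1 (0.00514) or without medium MYC control replicate 3 (0.0252). GBF1 passed without high MYC control replicate 3 (limma adjusted p = 0.0340) or medium MYC control replicate 3 (0.0202). Leaving out medium MYC control replicate 3 brought the members called to 5.

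At medium MYC the inhibitor comparison called 6 of the 9 members: ARF4, ARL1, ARF1 and GBF1 rose, and ARF6 and ARF3 fell. The background was 26.3% of all genes tested, 11.7% higher and 14.6% lower. Inhibitor and control libraries did not overlap for 6 members, against 27.9% of all genes. The 6 include ARFGEF1, which was not called and passed the filter on low values only through its medium MYC libraries. The median over the members was 0.11, beside -0.01 over all genes tested.

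ARF4 had the largest log2 difference among the 6 members called. It measured 635, 681, 608 and 699 in medium MYC controls and 961, 1019, 960 and 1015 with the inhibitor, so the lowest inhibitor library stood well above the highest control. The log2 difference was 0.59 (SE 0.056, limma adjusted p = 4.65e-08), a 1.51-fold rise. Without any 1 library it lay between 0.56 and 0.62 and stayed called.

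ARL1 (chromosome 12, 101393120 to 101407820) measured 377, 360, 433 and 387 in controls and 541, 531, 537 and 514 with the inhibitor. No libraries overlapped, and the log2 difference was 0.45 (SE 0.055, limma adjusted p = 2.07e-06), a 1.37-fold rise.

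ARF1, the main ARF of Golgi transport, measured 1995, 2042, 2285 and 2158 in controls and 2473, 2401, 2407 and 2394 with the inhibitor. All inhibitor libraries were above all controls. It rose by 0.19 (SE 0.037, limma adjusted p = 5.05e-04), whereas its difference at high MYC was -0.06.

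ARF6, which acts at the plasma membrane and in endosome recycling, measured 1704, 1708, 1476 and 1687 in controls and 1430, 1392, 1427 and 1398 with the inhibitor. The inhibitor libraries lay in a narrow band below every control, even though control replicate 3 stood apart from the others. ARF6 fell by 0.22 (SE 0.049, limma adjusted p = 0.00183).

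ARF3 measured 3527, 3504, 3519 and 3465 in controls and 3163, 3251, 3370 and 3352 with the inhibitor, again without overlap. It fell by 0.09 (SE 0.027, limma adjusted p = 0.0118), a 1.07-fold change. The call was lost with equal library totals (limma adjusted p = 0.102), with quantile normalization (0.262) and without medium MYC inhibitor replicate 1 (0.0525). A GC correction with the replicate block also ended it (limma adjusted p = 0.0509).

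GBF1 (chromosome 10, 102245532 to 102382899) measured 2036, 2047, 2280 and 2002 in controls and 2195, 2292, 2296 and 2250 with the inhibitor. Control replicate 3 lay among the inhibitor libraries, so the groups overlapped. The log2 difference of 0.11 (SE 0.038, limma adjusted p = 0.0341) was small. The call was lost without medium MYC control replicate 1, 2 or 4 or medium MYC inhibitor replicate 2, 3 or 4 (limma adjusted p from 0.0599 to 0.115). It was also lost without the mean trend (limma adjusted p = 0.0697), with no filter (0.0706) and with only the compared groups in the fit (0.0521).

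ARF5, ARFGEF2 and ARFGEF1 did not pass at medium MYC. ARF5 (chromosome 7, 127588345 to 127591705) measured 401, 426, 502 and 431 in controls and 412, 442, 405 and 405 with the inhibitor, a log2 difference of -0.08 (limma adjusted p = 0.455). ARFGEF2 (chromosome 20, 48921890 to 49036693) measured 1160, 1203, 1111 and 1204 in controls and 1195, 1218, 1222 and 1267 with the inhibitor, a log2 difference of 0.07 (limma adjusted p = 0.214). The groups overlapped for both genes. Neither the ARF most like ARF4 in sequence nor the main trans-Golgi exchange factor was called at either MYC level.

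ARFGEF1 (chromosome 8, 67173511 to 67343677) rested on few reads, from 0 to 9 per library at high MYC and from 7 to 25 at medium MYC. It passed the filter on low values only through the medium MYC libraries, because every high MYC library was at 9.98 or below. Its medium MYC controls were at 7.30, 6.85, 18.4 and 20.5 normalized counts and the inhibitor libraries at 22.1, 22.8, 25.1 and 24.2. These libraries did not overlap, but the log2 difference of 0.93 had an SE of 0.55 (limma adjusted p = 0.238). The inhibitor libraries, where ARFGEF1 was highest, did most to carry it past the filter. Their separation from the controls therefore gives no support for a response. The call appeared with a pseudocount of 10 (limma adjusted p = 0.0453) and with only the compared groups in the fit (0.0399). At high MYC the difference was 0.59 (limma adjusted p = 0.484), and a response was not detectable at this depth.

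**Figure D3:**
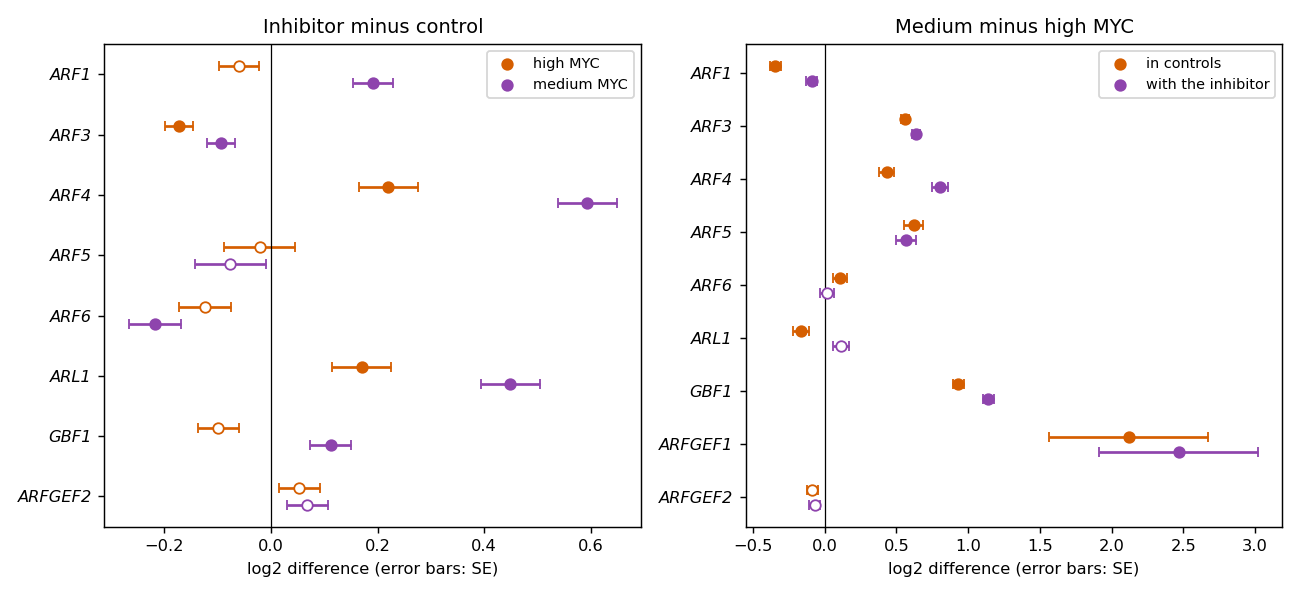
Left, log2 difference between inhibitor and control for 8 of the 9 genes at high and at medium MYC; ARFGEF1 (0.59 and 0.93, SE 0.55) is left out because its error would stretch the axis. Right, log2 difference between medium and high MYC for all 9 genes, in controls and with the inhibitor. Bars are SE of the fit over 16 libraries and filled points have a limma adjusted p under 0.05.

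Whether the response to the inhibitor depended on MYC level was tested as the difference of the responses, high minus medium. It was called for 4 of the 9 members, all lower at high MYC: ARF4 at -0.37 (SE 0.079, limma adjusted p = 0.00353), ARF1 at -0.25 (SE 0.053, 0.00349), ARL1 at -0.28 (SE 0.078, 0.0260) and GBF1 at -0.21 (SE 0.054, 0.0156). Of all genes tested 8.63% passed, 3.31% higher and 5.33% lower. ARF1 and GBF1 rose at medium MYC and were not called at high MYC, with values of -0.06 and -0.10 there, while ARF4 and ARL1 rose at both levels. The ARL1 call was lost without high MYC control replicate 3, high MYC inhibitor replicate 3 or medium MYC control replicate 1 or 2 (limma adjusted p from 0.0561 to 0.0642) and in DESeq2 (adjusted p = 0.0524).

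The fall of ARF3 and ARF6 was not shown to depend on MYC level. ARF3 differed between the responses by -0.08 (SE 0.038, limma adjusted p = 0.239) and ARF6 by 0.09 (SE 0.069, limma adjusted p = 0.478). ARF5 differed by 0.05 (limma adjusted p = 0.812), ARFGEF1 by -0.35 (SE 0.78, limma adjusted p = 0.860) and ARFGEF2 by -0.02 (limma adjusted p = 0.919).

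The next comparison set medium against high MYC among the controls. It shares its control libraries with the inhibitor comparisons. Here 8 of 9 members passed the limma test, 6 higher and 2 lower at medium MYC, beside 76.2% of all genes tested (38.9% higher and 37.3% lower). The 6 higher include ARFGEF1, which the filter kept only through its medium MYC libraries. The groups did not overlap for 6 members, ARFGEF1 again among them, against 69.2% of all genes, so a call in this comparison is the common case. The median over the members was 0.43, beside 0.02 over all genes tested.

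GBF1 had the largest difference among the well-measured members. It measured 1100, 1096, 1050 and 1138 in high MYC controls, near 1.91-fold below the medium MYC controls given above (log2 difference 0.93, SE 0.038, limma adjusted p = 1.84e-15). ARFGEF1 measured 0, 4.49, 1.10 and 5.59 in high MYC controls, below every medium MYC control. Its log2 difference of 2.12 (SE 0.55, limma adjusted p = 0.00164) depends on the pseudocount, at 0.83 with 10 and 3.15 with 0.1, and the call was lost with quantile normalization (1.02, limma adjusted p = 0.0673). Because ARFGEF1 passed the filter only through its medium MYC libraries, this test gives no support for a difference by MYC level. ARFGEF2 measured 1228, 1227, 1331 and 1179 in high MYC controls and did not pass (-0.09, limma adjusted p = 0.0507). It was called by edgeR (adjusted p = 0.0306) and by limma with the filter at 100 (adjusted p = 0.0474), without high MYC control replicate 4 (0.0195) and without medium MYC control replicate 2 (0.0402) or 4 (0.0393).

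Among the GTPases, ARF5, ARF3 and ARF4 were higher at medium MYC and ARF1 was lower. ARF5 measured 301, 287, 260 and 292 in high MYC controls, and its log2 difference was 0.62 (SE 0.067, limma adjusted p = 2.87e-08). ARF3 differed by 0.56 (SE 0.027, limma adjusted p = 2.66e-14) and ARF4 by 0.43 (SE 0.056, limma adjusted p = 4.03e-07). ARF1 measured 2750, 2730, 2590 and 2680 in high MYC controls and fell by 0.34 (SE 0.037, limma adjusted p = 3.22e-08). For these 4 genes no high MYC control overlapped a medium MYC control.

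ARL1 and ARF6 differed little between the controls. ARL1 fell by 0.16 (SE 0.055, limma adjusted p = 0.0106), with overlapping groups, and did not pass after a GC correction (limma adjusted p = 0.0872). ARF6 measured 1365, 1512, 1626 and 1600 in high MYC controls and had a log2 difference of 0.11 (SE 0.049, limma adjusted p = 0.0497), also with overlap. That call was marginal: it was lost in 7 of the other processing settings and in 13 of the 16 fits that left out 1 library. Only the fits without high MYC control replicate 3 or 4 or medium MYC control replicate 3 kept it; over the 16 fits the difference ran from 0.06 to 0.16.

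With the inhibitor present, medium against high MYC called 6 of 9 members, 5 higher and 1 lower, beside 77.5% of all genes (39.7% higher and 37.8% lower). Libraries of the 2 groups were separate for 7 members, against 72.6% of all genes. GBF1 was at 999, 1023, 1054 and 1018 in high MYC inhibitor libraries and differed by 1.14 (SE 0.038, limma adjusted p = 4.56e-17), a 2.21-fold difference. ARF4 differed by 0.80 (limma adjusted p = 1.55e-11), ARF3 by 0.64 (limma adjusted p = 2.43e-15), ARF5 by 0.57 (limma adjusted p = 1.13e-07) and ARFGEF1 by 2.47 (SE 0.55, limma adjusted p = 3.94e-04). The ARFGEF1 call, counted among the 6, and its place among the 7 separate members have the same limit from the filter as in controls. ARFGEF2 did not pass (-0.07, limma adjusted p = 0.103).

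ARF1, ARF6 and ARL1 had small differences by MYC level in treated cells. ARF1 measured 2491, 2517, 2690 and 2615 in high MYC inhibitor libraries, just above the medium MYC inhibitor libraries, a log2 difference of -0.09 (limma adjusted p = 0.0317). That call was lost without high MYC inhibitor replicate 3 or 4 or medium MYC inhibitor replicate 2, 3 or 4 (limma adjusted p from 0.0581 to 0.114). It was also lost with quantile normalization (limma adjusted p = 0.0979), with no filter (0.0596) and without the mean trend (0.0676), while a GC correction moved the value to -0.15. ARF6 measured 1416, 1386, 1389 and 1398 at high MYC and differed by 0.01 (limma adjusted p = 0.801). ARL1 differed by 0.12 (limma adjusted p = 0.0609) and passed in 5 other processing settings and without high MYC inhibitor replicate 1 (limma adjusted p = 0.0461) or medium MYC control replicate 3 (0.0323).

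ARFGEF1 had the widest range of group means, 3.05 on the log2 scale, and ARFGEF2 the narrowest at 0.14. Among genes with a mean of 100 or more, those whose centred group means lay nearest to those of ARFGEF1, by root mean square difference over the 4 groups, included DRAM1 (0.24), IRF4 and LY75 (0.27 each) and MUC19 (0.28), of 9604 candidates. Over only 4 points such likeness is loose, and the level of ARFGEF1 itself rests on few reads. Its range is also that of a gene which passed the filter only through its medium MYC libraries.

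The rest of the ARF pathway was read from lists of its regulators, coats and effectors, described by counts and medians. The share of all genes called, against which each count is to be read, was 26.8% at high MYC, 26.3% at medium MYC and 8.63% for the difference in response. Of 8 other ARF exchange factors tested of 12 listed, 1 rose and 4 fell at high MYC, and 3 rose and 2 fell at medium MYC (medians -0.10 and 0.04). CYTH4, a cytohesin of blood cells, fell at both levels (-0.95 and -0.63). PSD4, an ARF6 exchange factor, also fell at both (-0.24 and -0.45). CYTH3 rose at both (0.42 and 0.24). The response differed between MYC levels for PSD4 (0.21), PSD3 (-0.38) and CYTH4 (-0.32), but DESeq2 called only 1 of the list. The count was also 1 without high MYC control replicate 2, high MYC inhibitor replicate 3, medium MYC control replicate 1 or medium MYC inhibitor replicate 1 or 4.

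Of 20 GTPase-activating proteins tested of 23 listed, 1 rose and 9 fell at high MYC, and 2 rose and 7 fell at medium MYC. The medians were -0.13 and -0.09. ACAP1 (-0.42 and -0.54), AGAP2 (-0.52 and -0.37) and ARAP1 (-0.36 and -0.27) fell at both levels. ARFGAP3, a Golgi GTPase-activating protein that acts with COPI, rose at medium MYC (0.31, limma adjusted p = 7.48e-04) and was at 0.02 at high MYC. The response differed between MYC levels for SMAP2 (-0.20) and ARAP2 (-0.33), the only 2 of the list called there; 4 were called after a GC correction.

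ARF1 and its relatives recruit the COPI coat to the Golgi. Of 8 subunits tested of 9 listed, 5 rose with the inhibitor at medium MYC and none fell (median 0.30): COPA 0.35, COPG1 0.38, COPB2 0.36, ARCN1 0.30 and COPB1 0.31. At high MYC 3 rose and none fell (median 0.03), led by ARCN1 at 0.15; only 1 was called without high MYC control replicate 1, without the mean trend or after a GC correction. The response was lower at high MYC for 5 subunits, among them COPA (-0.31, limma adjusted p = 9.81e-06) and COPG1 (-0.35, limma adjusted p = 4.32e-05). This count was 3 without high MYC inhibitor replicate 1 and without the mean trend.

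Cargo receptors travel in COPI vesicles. Of 10 tested of 11 listed, 8 rose at medium MYC (median 0.32) and 3 at high MYC (median 0.07), and none fell. KDELR2, which returns escaped chaperones to the endoplasmic reticulum, rose by 0.81 at medium and 0.31 at high MYC. TMED2, a p24 cargo receptor, rose by 0.63 and 0.14. The response was lower at high MYC for 5 of the receptors, including KDELR2 (-0.50) and TMED2 (-0.49).

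The COPII coat forms the opposite, outward route and is built on SAR1 rather than ARF. All 12 listed genes were tested: 10 rose at medium MYC (median 0.28), 5 rose at high MYC (median 0.07) and none fell. SEC24D, a cargo-binding subunit, rose by 1.29 at medium and 0.73 at high MYC, and SEC31A by 0.41 and 0.11. The responses differed for 7 genes, all lower at high MYC, including SEC24D (-0.56, limma adjusted p = 6.46e-06).

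Endoplasmic reticulum and Golgi stress genes encode chaperones, transcription factors and other proteins of the secretory pathway. All 12 rose at medium MYC (median 0.82), with HSPA5 and HERPUD1 at 1.28 each, XBP1 at 1.06 and CALR at 0.59. At high MYC 1 rose (XBP1, 0.21) and 1 fell (CALR, -0.08); 6 processing settings left 1 called, as did leaving out high MYC control replicate 1 or high MYC inhibitor replicate 2 or 4. The response was lower at high MYC for 11 of 12, with HSPA5 at -1.24 (limma adjusted p = 7.02e-15). Their part in the changes of ARF4, ARL1, ARF1 and GBF1 was not tested.

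**Figure D4:**
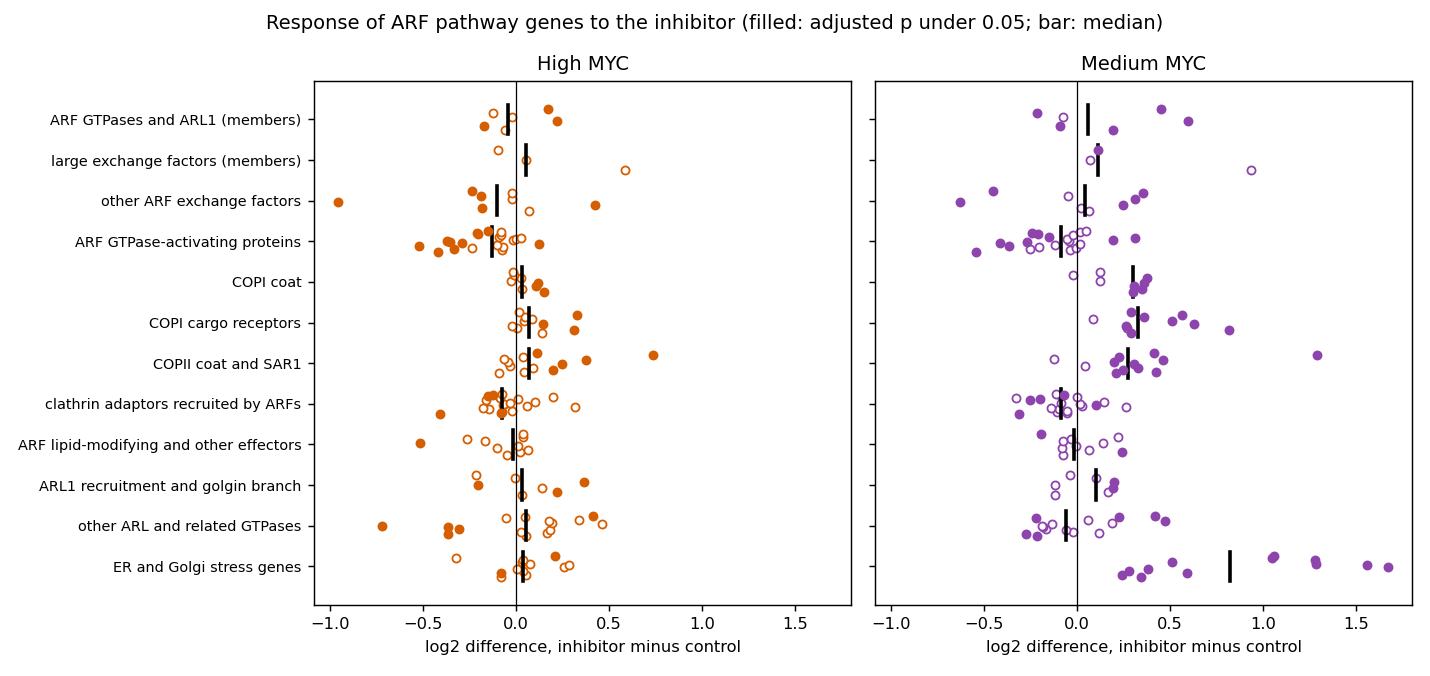
Log2 difference between inhibitor and control for each tested gene of the members and of 10 pathway lists, at high MYC (left) and medium MYC (right); filled points have a limma adjusted p under 0.05 and the black bar is the list's median. COPI, its cargo receptors, COPII and the stress genes lie to the right of 0 at medium MYC (medians 0.30, 0.32, 0.28 and 0.82), whereas the clathrin adaptors are centred at -0.09.

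Clathrin adaptors and lipid enzymes are effectors of ARFs at and beyond the trans-Golgi. Of 19 adaptor genes tested of 20 listed, 4 fell and none rose at high MYC, and 4 fell and 1 rose at medium MYC. These shares are close to or below those over all genes (26.8% and 26.3%). AP1B1, a subunit of the trans-Golgi adaptor AP-1, fell by 0.41 at high and 0.31 at medium MYC, and GGA2 by 0.13 and 0.07. The adaptor count at high MYC was 2 without high MYC control replicate 2. At medium MYC it was 3 with equal library totals, with quantile normalization, with the replicate block or without medium MYC control replicate 1. It was 2 with no filter, without the mean trend or without medium MYC control replicate 2 or 4 or medium MYC inhibitor replicate 2. AP3D1 was the only adaptor with a called difference between the responses (-0.17), and that call was absent with no filter, without the mean trend or without high MYC control replicate 1 or 2, high MYC inhibitor replicate 2, medium MYC control replicate 2 or 4 or medium MYC inhibitor replicate 2.

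Of 10 lipid-modifying and other effectors tested of 11 listed, PIP5K1B, a kinase that makes a phosphoinositide, fell at high MYC (-0.52) and was at 0.14 at medium MYC. The difference between its responses was -0.66 (limma adjusted p = 5.39e-06). At medium MYC ARFIP2, which binds ARF and ARL1, rose (0.24) and PLEKHA8 fell (-0.19). The number of effectors called at high MYC was 3 without replicate 3 of the high MYC controls, the high MYC inhibitor or the medium MYC controls. At medium MYC it was 1 without medium MYC control replicate 1 or 4 or medium MYC inhibitor replicate 3 and in DESeq2, and 4 with quantile normalization.

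The transcripts of the myristoylation enzymes passed no test of the inhibitor. NMT1 measured 1505 ± 27.6 (SD, n = 4) and 1454 ± 36.3 at high MYC, and 1729 ± 54.4 and 1662 ± 75.7 at medium MYC, without and with the inhibitor. None of NMT1, NMT2, METAP1 and METAP2 was called for the response at either level or for its difference by limma, edgeR or DESeq2, and 0 had an unadjusted limma p under 0.05. By MYC level with the inhibitor NMT1 was higher at medium MYC by 0.19 (limma adjusted p = 3.84e-05) and NMT2 by 2.83 (limma adjusted p = 2.91e-07). NMT2 was at 2.79 ± 1.42 in high MYC controls, from 1 to 4 reads per library. Across high MYC libraries it was at 1.04 to 4.41, and across medium MYC ones at 10.7 to 27.2. NMT2 thus passed the filter on low values only through the medium MYC libraries, and its test by MYC level gives no support for a difference.

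Promoters were searched because ARF4, ARL1, ARF1 and GBF1 rose together at medium MYC. RefSeq (GRCh38.p14) gives 11 windows for 7 of the members, and ARF4 and ARFGEF1 were not matched. In the 250 bases before each start, both strands were searched for the E-box CACGTG, the cAMP response element TGACGTCA, the UPR element TGACGTGG and the ER stress response element. The Golgi stress element ACGTGGC and the amino acid response element TGATGCAA were searched as well. Over all 35116 such windows the motifs occur in 6.34%, 1.65%, 0.612%, 0.0740%, 2.78% and 0.772%. Only 1 member window matched any of them, the most upstream of ARF1. The last 30 bases before that start, chr1:228082678-228082707 (plus strand), hold the UPR element and, overlapping it, the Golgi stress element, in capitals.
ARF1 promoter: gcgcccggaggcgcTGACGTGGCcgccgtc
A match is a description of these letters only, and the windows of ARL1, GBF1, ARF3, ARF5, ARF6 and ARFGEF2 held no match.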

How the data were processed

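Per the labels' protocols, RNA came from a QIAGEN miRNeasy extraction, a Nugen kit gave the cDNA, and sequencing used an Illumina HiSeq. The authors deposited 1 table of normalized counts, a non-negative signal per Ensembl gene and library. The submitters' processing notes name STAR 2.5.2a, RSEM 1.2.31, DESeq2 1.16.1 and GRCh38, without roles. The annotation and the use of strand are not given in the sources used here. All deposited values were whole multiples of a step per library (100% of values, tolerance 1e-06), which gave back whole reads and size factors of 0.858 to 1.33.

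Symbols were matched for 56948 identifiers and GENCODE 29 positions for 57447. The main test was limma 3.58.1 (R 4.3.3) on log2(normalized count + 1), with a mean trend and Benjamini-Hochberg adjustment over the 13765 genes whose mean was 10 or more. All 16 libraries entered 1 fit with 4 group means, and tests are two-sided. The members and lists were chosen with earlier results of these data known, so they give no independent support. All 9 members were to be named in every comparison, and MYC, NMT1 and NMT2 as checks of the design. Up to 4 called genes with the smallest adjusted p per list and comparison could be named, and other list genes (COPB1 at medium MYC, ARFGAP3) were named after their values were seen. Shares used the summed count per kb of merged exons.

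Alternatives were equal library totals, quantile normalization, pseudocounts of 0.1 and 10, no filter, a filter at 100, no mean trend, compared groups only, edgeR 4.0.16 and DESeq2 1.42.0 on recovered reads, a replicate block, a GC correction with and without the block, other gene lengths, and each library left out. The longest transcript as gene length was added after seeing the data. The fit was tested on simulated data for the inhibitor comparison at high MYC over 13765 genes. It recovered 76.1% of 71 genes changed by 0.5 on the log2 scale, 98.4% of 64 changed by 1 and 95.4% of 65 changed by 2. It also called 25 unchanged genes, a larger share of the calls than the adjusted p threshold is meant to allow. Member calls with an adjusted p close to that threshold are therefore uncertain. Changes below 0.5, the size of most member differences with the inhibitor, were not simulated, so their recovery is not known. Counting error sets the lower limit of precision. Some genes that the naming rules chose are not reported here.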

Additional observations from a re-analysis of the deposited data

Results flagged for a closer look

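In 3 of the 36 gene and group combinations of the members, 1 library stood apart from the other 3 by Dixon's ratio of its gap to the group's range; chance alone gives about 1 in 20. ARF6 was lowest in medium MYC control replicate 3 (ratio 0.910, normalized count 1476), and GBF1 was highest in the same library (ratio 0.839, 2280). ARFGEF2 was highest in high MYC inhibitor replicate 4 (ratio 0.830, 1336). Without medium MYC control replicate 3 the fall of ARF6 at medium MYC and the rise of GBF1 there both kept their limma calls.

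Responses to the inhibitor at high and medium MYC differed (high minus medium) for 4 members in limma: ARF1 (-0.25), ARF4 (-0.37), ARL1 (-0.28) and GBF1 (-0.21). Among other regulators it differed for PSD4 (0.21), PSD3 (-0.38), CYTH4 (-0.32), SMAP2 (-0.20) and ARAP2 (-0.33). In the COPI group it differed for COPA (-0.31), COPG1 (-0.35), COPB2 (-0.24), COPB1 (-0.20), TMED2 (-0.49), KDELR2 (-0.50), TMED3 (-0.47) and TMED10 (-0.28). In the COPII group it differed for SEC24D (-0.56), SEC31A (-0.30), SAR1A (-0.38) and SEC23B (-0.24). It also differed for AP3D1 (-0.17), PIP5K1B (-0.66), HSPA5 (-1.24), HERPUD1 (-1.21), CALR (-0.67) and XBP1 (-0.85). Apart from PSD4, each of these named genes had the lower response at high MYC. For each list up to 4 genes with the smallest adjusted p are named.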

How the results depend on the processing

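Of 571 recomputed log2 differences of the members under other processing settings, 532 kept their direction and side of the threshold, 22 lost the call, 11 gained it and 6 changed sign. Those that changed sign were not called in any setting: ARF5 at high MYC (0.0100 with quantile normalization, 0.0387 with a GC correction alone or with the replicate block), ARF6 by MYC level with the inhibitor (-0.0023 with quantile normalization), and the difference in response of ARFGEF1 (0.30 with a pseudocount of 0.1) and ARFGEF2 (0.0027 with quantile normalization). The cause was not tested. Quantile normalization moved the split of calls at high MYC from 1442 higher and 2247 lower to 1727 and 1770. Over the fits that left out 1 library, the members called ran from 2 to 5 at high MYC, 5 to 6 at medium MYC, 3 to 4 for the difference, 7 to 9 by MYC level in controls and 5 to 7 with the inhibitor. Differences near 0 changed sign in some of these fits, none of them called: ARF5 at high MYC ran from -0.0641 to 0.0080, and the difference in response from -0.0108 to 0.0979 for ARF5, from -0.868 to 0.0386 for ARFGEF1 and from -0.0393 to 0.0189 for ARFGEF2.

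Mean shares of the ARF pool without division by length were 30.03% for ARF1, 33.8% for ARF3, 8.07% for ARF4, 4.27% for ARF5 and 5.63% for ARL1. With the longest transcript they were 40.0%, 22.1%, 13.0%, 7.59% and 4.64%, and 12.6% for ARF6; the main values were 33.7%, 24.9%, 11.5%, 8.41% and 4.16%, and 17.4% for ARF6.

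Replicate numbers did not pair the libraries: same-numbered residuals correlated on average at -0.07 to 0.02 across genes. With the replicate block 3468 genes were called at high MYC, 3425 at medium MYC, 1052 for the difference, 10419 by MYC level in controls and 10601 with the inhibitor. The only member call the block alone changed was ARF6 by MYC level in controls (limma adjusted p = 0.0698). Depth limits ARFGEF1 most, at 25 reads or fewer per library.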

Other observations

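ARL1 works with a set of partners at the trans-Golgi, and all 7 genes of that list were tested. GOLGA4, a golgin that ARL1 recruits, rose with the inhibitor at high MYC (0.36, limma adjusted p = 1.19e-04) and at medium MYC (0.20, limma adjusted p = 0.0198). GCC2, another golgin, rose at medium MYC (0.19), and at high MYC GCC1, whose exons overlap ARF5, rose (0.22) and GOLGA1 fell (-0.21). At medium MYC the number called was 2, and 1 without medium MYC control replicate 2 or 3 or medium MYC inhibitor replicate 1 or 4. None of the 7 had a called difference in response by limma, edgeR or DESeq2, and 0 had an unadjusted limma p under 0.05. SYS1, which helps to bring the ARL1 activator ARFRP1 to the Golgi, was higher at medium MYC in controls by 1.58 (limma adjusted p = 2.93e-12).

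Of 15 other ARF-like GTPases tested of 17 listed, 1 rose and 4 fell at high MYC, and 3 rose and 3 fell at medium MYC. Over all genes 26.8% were called at high MYC and 26.3% at medium MYC, so the count at high MYC is close to the background. ARL3, a release factor for lipid-modified cargo, fell at high MYC (-0.37), and ARL11 fell at both levels (-0.36 and -0.27). Differences in response were called for 0 of them by limma, edgeR and DESeq2, with 4 at an unadjusted limma p under 0.05. The number was 3 after a GC correction, 2 without high MYC control replicate 1, and 1 without high MYC control replicate 4, high MYC inhibitor replicate 1 or medium MYC inhibitor replicate 2.

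By MYC level among controls, several pathway genes differed more than any member other than ARFGEF1. A call is the common case in this comparison, with 76.2% of all genes called, 38.9% higher and 37.3% lower. CYTH3 was higher at medium MYC by 2.14, ARFGAP3 by 1.51 and ARAP2 by 1.33, whereas AGAP3 was lower (-1.12). COPI subunits were higher for 7 of 8, with COPB2 at 0.57, while 6 of 10 COPI cargo receptors were lower, with TMED3 at -1.35. In the same comparison METAP1 (-1.03) and METAP2 (-0.64), which remove the start methionine ahead of myristoylation, were lower and NMT2 (2.08) and NMT1 (0.20) were higher. NMT2 passed the filter only through its medium MYC libraries.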
